A study of Mus musculus with 2 samples.

Results

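The granule genes described here encode the killing machinery of cytotoxic lymphocytes: the granzymes Gzma, Gzmb, Gzmc, Gzmk and Gzmm, perforin (Prf1), the granule proteins Nkg7, Ctsw and Srgn, and the granzyme inhibitor Serpinb9. They were taken by name, with earlier results of these data known. The array measured them with 12 probes that matched these 10 of the 17176 mouse genes it named. The study compared helper T cells, which carry CD4, with cytotoxic T cells, which carry CD8. Both were sorted from the spleen of wild-type mice of the strain the labels call C57B6, with no treatment other than the sort stated. Total RNA of each cell type (0.5 µg into the labelling reaction) was hybridised to 1 one-colour Agilent array. Not given in the sources used here are the age and sex of the mice, how many were pooled, and the antibodies of the sort. With 1 array per cell type there were no biological replicates, so no test was possible, and every difference below describes these arrays.

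A cytotoxic lymphocyte stores granzymes, which are serine proteases, in secretory granules together with perforin, and releases both towards a target cell. Perforin forms pores in the target's membrane, and the granzymes that enter cleave proteins inside it and set off cell death. Serglycin, the product of Srgn, is the proteoglycan on which granzymes are packed, and Serpinb9 encodes a serpin that inactivates granzyme B. Naive T cells hold little of this machinery, and activated CD8 T cells and natural killer (NK) cells are known for it.

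The signal given for each probe is the scanner software's processed Cy3 intensity in arbitrary units, after background subtraction. Differences were computed after dividing by the array's 75th percentile of all non-control spots, which was 508 for the CD4+ and 449.9 for the CD8+ sample. They are on the log2 scale, CD8+ minus CD4+, so values above 0 stand for a higher CD8+ level. The ± beside a signal or difference is 1 SD by the scanner software's own error model, which covers the measurement of a spot and no difference between mice. Over all genes, the difference varied with an SD of 0.23 between probes of a gene (3972 genes) and of 0.16 between spots of a probe (158 probes). The labels were checked with the genes of the sorted proteins: Cd8a was 105.6-fold higher on the CD8+ array and Cd4 4.12-fold higher on the CD4+ array (2.58-fold with normexp, described with Gzmm), while Cd3e, a chain of the T cell receptor complex, differed by 0.50. The Cd4 probe read 307 with CD4+ and 66.0 with CD8+ RNA, below the 75th percentile of either array. No probe was named for Cd8b1.

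The granule genes did not move as a block. On the CD8+ array Nkg7, Gzmm, Ctsw and Prf1 were at least 2-fold higher, which is 4 of the 10 genes, against 2.24% of the 13062 genes well above background on at least 1 array. On the CD4+ array Gzmc, Gzmb and Gzmk were at least 2-fold higher, 3 of the 10, against 4.66% of all genes. Serpinb9, Srgn and Gzma lay within 2-fold. Since the members were chosen with earlier results of these data known, the shares are given as description and test nothing. The median difference of the 10 genes was 0.27, beside 0.005 for all genes, with 5 genes on either side of 0. All 10 were well above background on both arrays, and none of their spots was saturated or marked as an outlier. In sorted bulk RNA, fewer cells that express a gene and less of its RNA per cell cannot be told apart.

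**Figure D1:**
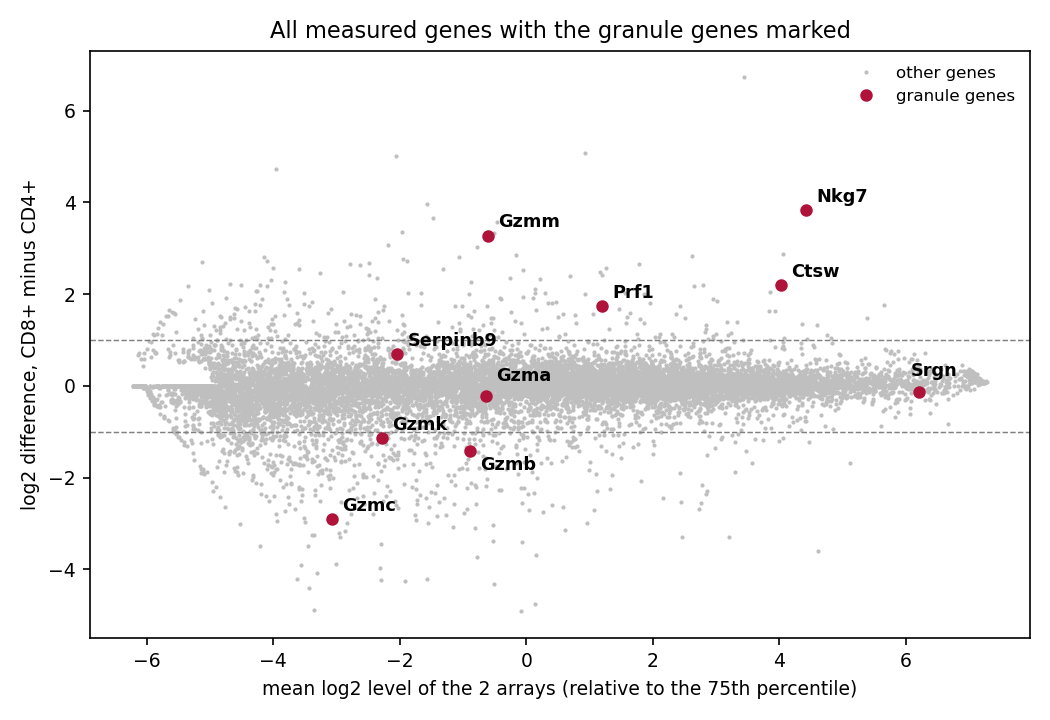
Log2 difference (CD8+ array minus CD4+ array) of 13062 genes well above background on at least 1 array, against the mean log2 level of the 2 arrays, with the granule genes in red and dashed lines at 2-fold. Nkg7 at 3.83 and Gzmm at 3.28 stand near the top of the cloud and Gzmc at -2.91 near the bottom; the flat line of points at 0 holds 227 genes above background on 1 array for which no difference could be bounded.

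Promoters of 6 of the 7 members past 2-fold in either direction are printed because the data set these genes apart from each other and T cell factors of the Runx and T-box families are known to act on granule genes. Each is the stretch of 250 bases before the start of the gene in RefSeq (build GRCm38.p6), read 5′ to 3′ on the gene's own strand, and capitals mark matches to the Runx letters ACCACA or the T-box letters GGTGTG on either strand (TGTGGT and CACACC read from the other strand). The windows of Nkg7 (chr7:43436888-43437137, plus strand), Prf1 (chr10:61297586-61297835, plus strand) and Gzmm (chr10:79688770-79689019, plus strand) belong to genes higher on the CD8+ array, and those of Gzmb (chr14:56262335-56262584, minus strand), Gzmc (chr14:56234658-56234907, minus strand) and Gzmk (chr13:113180966-113181215, minus strand) to genes higher on the CD4+ array. For Gzmm the first of its windows is shown.
Nkg7: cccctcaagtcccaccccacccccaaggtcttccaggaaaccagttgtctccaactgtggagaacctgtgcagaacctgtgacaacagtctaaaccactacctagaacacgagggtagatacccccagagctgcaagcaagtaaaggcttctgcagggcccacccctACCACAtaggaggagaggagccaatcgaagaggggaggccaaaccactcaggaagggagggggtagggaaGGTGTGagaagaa
Prf1: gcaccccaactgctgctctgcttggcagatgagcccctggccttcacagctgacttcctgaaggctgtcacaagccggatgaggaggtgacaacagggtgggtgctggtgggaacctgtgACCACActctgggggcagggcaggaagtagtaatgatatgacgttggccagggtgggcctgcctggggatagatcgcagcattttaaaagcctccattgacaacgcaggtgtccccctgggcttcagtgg
Gzmm: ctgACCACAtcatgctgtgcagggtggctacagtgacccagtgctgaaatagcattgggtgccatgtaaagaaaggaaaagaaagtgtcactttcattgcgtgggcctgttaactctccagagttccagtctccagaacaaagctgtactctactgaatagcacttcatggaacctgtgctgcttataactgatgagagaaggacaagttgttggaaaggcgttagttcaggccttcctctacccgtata
Gzmb: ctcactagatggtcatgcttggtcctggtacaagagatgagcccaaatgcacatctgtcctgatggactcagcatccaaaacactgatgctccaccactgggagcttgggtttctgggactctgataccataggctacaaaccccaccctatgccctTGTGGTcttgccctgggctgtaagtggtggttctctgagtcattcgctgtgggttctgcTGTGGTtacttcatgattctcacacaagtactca
Gzmc: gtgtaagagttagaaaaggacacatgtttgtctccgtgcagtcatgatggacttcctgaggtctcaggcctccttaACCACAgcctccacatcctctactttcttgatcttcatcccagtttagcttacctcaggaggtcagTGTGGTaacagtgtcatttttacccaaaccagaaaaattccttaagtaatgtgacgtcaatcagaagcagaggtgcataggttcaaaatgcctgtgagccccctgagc
Gzmk: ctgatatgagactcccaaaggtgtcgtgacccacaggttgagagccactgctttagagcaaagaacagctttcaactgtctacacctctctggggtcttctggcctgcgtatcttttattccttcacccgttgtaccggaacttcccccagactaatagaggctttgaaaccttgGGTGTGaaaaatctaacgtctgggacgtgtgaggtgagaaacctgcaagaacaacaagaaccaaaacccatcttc

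The promoter table held 11 start sites for 9 of the 10 genes, and Ctsw was not among them. The Runx letters occurred in 7 of these 11 windows, against 14.0% of 32851 promoter windows of the same length, and the T-box letters in 4 of 11, against 16.3%. The Runx letters were present on both sides of the comparison: the Nkg7 window held them 83 bases before the start, the Prf1 window 130 and the first of the Gzmm windows 247, while the Gzmb window held them 93 and 34 bases before the start and the Gzmc window 174 and 108. They also stood in the windows of Gzma and of the second Srgn start. The T-box letters stood 13 bases before the start of Nkg7, 75 before Gzmk, 170 before Serpinb9 and 189 before the second Gzmm start. The letters of the motifs can overlap, but no matches overlapped in these windows. A match is a description of the sequence and shows no binding.

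Nkg7 encodes a membrane protein of cytotoxic granules that takes part in their release. Its brighter probe (A_52_P24447) read 2885 ± 289 with CD4+ and 36187 ± 3619 with CD8+ RNA. The other probe (A_51_P499195) read 1518 ± 152 and 23464 ± 2346. Both probes were far higher on the CD8+ array, by 3.83 ± 0.20 (14.2-fold) and 4.13 ± 0.20 (17.5-fold), so they differed from each other by little more than the SD between probes of a gene. Among the 13062 genes, only 5 had a larger difference in favour of the CD8+ array. Nkg7 was also well above background on the CD4+ array, where Cd8a read 535, against 49982 on the CD8+ array.

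Gzmm encodes granzyme M, a protease that cuts after methionine or leucine and is known from NK and innate-like T cells. Its probe read 107 ± 11.2 with CD4+ and 921 ± 92.2 with CD8+ RNA. The difference was 3.28 ± 0.21, or 9.69-fold, the 11th largest in favour of the CD8+ array, and Gzmm was the only granzyme among the members with a higher level there. With normexp, another background correction run with an offset of 50 on the spots' median pixel brightness, it was 6.12-fold. The offset is added to every spot on both arrays, which pulls the differences of dim spots towards 0.

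Ctsw encodes cathepsin W, a papain-type cysteine protease found in cytotoxic lymphocytes. Its probe read 3855 ± 386 with CD4+ and 15574 ± 1557 with CD8+ RNA. The CD8+ value was the higher one by 2.19 ± 0.20, or 4.57-fold. Prf1, the pore-forming protein, read 639 ± 64.0 with CD4+ and 1879 ± 188 with CD8+ RNA. It was 3.32-fold higher on the CD8+ array (1.73 ± 0.20). For Nkg7, Ctsw and Prf1 the settings tried moved the fold by less than 1.5 times.

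**Figure D2:**
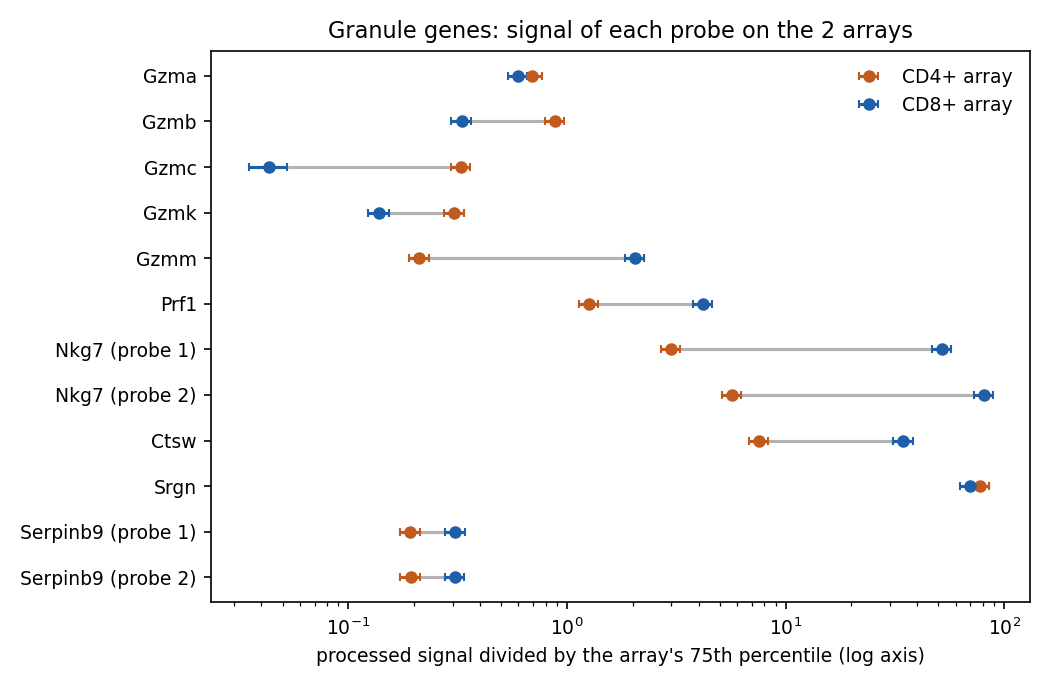
Processed signal of each probe of the granule genes on the CD4+ array (orange) and the CD8+ array (blue), divided by the array's 75th percentile, on a log axis; bars are ±1 SD by the scanner's error model. The paired points of Nkg7, Gzmm, Ctsw and Prf1 lie apart with blue to the right, and those of Gzmc, Gzmb and Gzmk with orange to the right; values of different probes are not comparable.

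The granzymes were split. Gzmc, Gzmb and Gzmk were at least 2-fold higher on the CD4+ array, Gzma lay within 2-fold and Gzmm lay on the other side. Gzmb encodes granzyme B, which cuts after aspartate and activates caspases. It read 449 ± 45.0 with CD4+ and 148 ± 15.1 with CD8+ RNA, and was 2.68-fold higher on the CD4+ array (-1.42 ± 0.21). Gzmb thus ran opposite to Prf1, with which its product is released.

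Gzmc encodes granzyme C, a relative of granzyme B found in strongly stimulated mouse T cells. Its probe read 166 ± 16.9 with CD4+ and 19.6 ± 3.86 with CD8+ RNA, where the lowest probe signal well above background was 14.7. The difference of -2.91 ± 0.32, or 7.51-fold, was the 40th largest in favour of the CD4+ array, and its size depended on how the background was handled. The spot's median pixel brightness on the CD8+ array was 61 over a local background of 51.5, against 193 over 45 on the CD4+ array. With normexp the CD4+ array was 2.29-fold higher, and with the authors' series values, which are not background-subtracted, 2.85-fold.

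Gzmk encodes granzyme K, a trypsin-like protease typical of memory T cells. It read 155 ± 15.7 with CD4+ and 62.4 ± 6.94 with CD8+ RNA, a difference of -1.14 ± 0.22, or 2.20-fold. This lay just past 2-fold and fell short of it with normexp (1.75-fold) and with the series values (1.81-fold). With each array scaled to its median in place of the 75th percentile, the difference of Gzmk was -0.997. Gzma, the trypsin-like granzyme A, read 353 ± 35.5 and 269 ± 27.1 on the CD4+ and CD8+ arrays. Its difference of -0.22 ± 0.21 was smaller than the SD of 0.23 between probes of a gene. Granzymes are close relatives in sequence, and with the probe sequences not used here it cannot be told whether a probe also binds RNA of a related granzyme.

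Srgn, the proteoglycan gene, gave strong signals throughout, 39251 ± 3925 with CD4+ and 31521 ± 3152 with CD8+ RNA. The difference was -0.14 ± 0.20, within the spread of spots, and it was 0.002 with median scaling. Serpinb9 read 97.6 ± 10.2 and 139 ± 14.3 on the CD4+ and CD8+ arrays by the probe A_51_P354265, and 97.9 ± 10.2 and 139 ± 14.2 by A_52_P492411. The CD8+ values were higher by 0.69 ± 0.21 and 0.68 ± 0.21, or 1.61-fold and 1.60-fold. The probes thus differed by far less than the SD between probes of a gene. Gzmb and its inhibitor lay on opposite sides of 0, with Serpinb9 short of 2-fold.

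**Figure D3:**
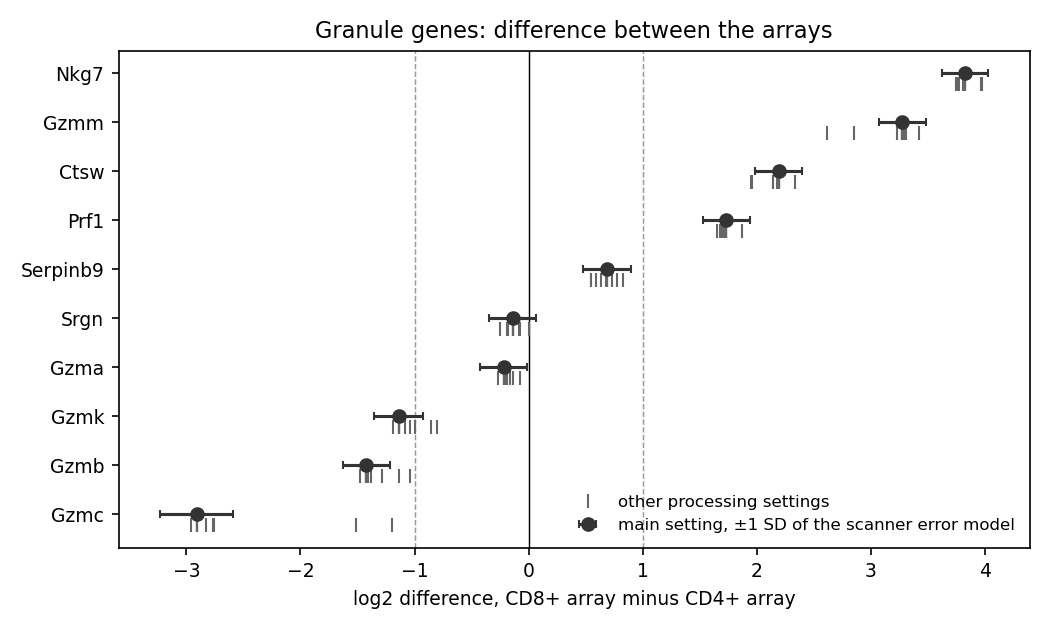
Log2 difference (CD8+ array minus CD4+ array) of each granule gene by its brightest probe, with bars of ±1 SD by the scanner's error model, dashed lines at 2-fold and small ticks for 11 other processing settings. Nkg7 is highest at 3.83 and Gzmc lowest at -2.91; the ticks of Gzmc reach -1.20 and those of Gzmk -0.81.

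The 2-fold calls can be read against genes of like brightness, since dim genes scatter more. Each of the 10 lay among the 11957 genes detected in both samples, of which 1.94% were at least 2-fold higher on the CD8+ array and 3.83% on the CD4+ array. Gzmc and Gzmk fell in the lowest quartile of mean level of these genes, where 7.19% lay past 2-fold on the CD4+ side and 2.91% on the CD8+ side. Gzma, Gzmb, Gzmm and Serpinb9 fell in the second quartile, with 5.75% on the CD4+ side and 2.68% on the CD8+ side. Prf1 fell in the third, with 1.57% on the CD4+ side and 1.1% on the CD8+ side. Nkg7, Ctsw and Srgn fell in the highest, with 0.803% and 1.07%. By probes, 5 of the 12 were at least 2-fold higher on the CD8+ array, against 2.06% of 26275 probes, and 3 on the CD4+ array, against 3.92%.

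Members of the granzyme family lie together on the chromosomes. Gzmb and Gzmc are neighbours on chromosome 14, at one end of a stretch of 15 genes that runs through the other granzymes Gzmf, Gzmn, Gzmg, Gzmd and Gzme, the neutrophil protease gene Ctsg and the mast cell protease genes to the chymase gene Cma1. Of these 15 genes, 7 passed background in at least 1 sample and 8 in none. The 4 at least 2-fold higher on the CD4+ array were Gzmc, Gzmb, Mcpt4 at 3.25-fold and Cma1 at 2.75-fold. Gzmc and Gzmb were already counted among the members. No gene of the stretch was that much higher on the CD8+ array. The shares over all genes were 4.66% on the CD4+ and 2.24% on the CD8+ side. Mcpt4 read 19.5 on the CD8+ array, where the lowest probe signal well above background was 14.7. Its spot there had a median pixel brightness of 58 under a local background of 61. With normexp, Cma1 was 1.47-fold and Mcpt4 1.54-fold apart, so that Gzmb and Gzmc were the only ones past 2-fold. Gzma and Gzmk are neighbours on chromosome 13, while Gzmm lies on chromosome 10 with Prf1 and Srgn, which are not next to it.

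The other granzymes of the mouse were hardly detected. Gzmd, Gzmf, Gzmg and Gzmn did not reach the well-above-background call in either sample. Gzme read 20.1 on the CD4+ array and was not well above background on the CD8+ array, where it read 3.16, so it was at least 1.21-fold higher on the CD4+ array. With no filter on dim probes the difference of Gzme was -2.49. Since Gzmd, Gzmf, Gzmg and Gzmn had no measured difference and Gzme only a lower bound, 2-fold could not be judged for these 5 genes.

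Granule proteases, their activators and inhibitors were measured for 10 of 10 genes, with a median of -0.09. None was at least 2-fold higher on the CD4+ array, against 4.66% of all genes, and 1 was on the CD8+ array, against 2.24%. That gene was Cst7, which encodes cystatin F, an inhibitor of granule cathepsins: it read 927 with CD4+ and 3264 with CD8+ RNA, 3.98-fold higher. Cst3 (cystatin C) was 1.92-fold higher on the CD8+ array, and the lysosomal cathepsin genes Ctsh and Ctsl were 1.82-fold and 1.55-fold higher on the CD4+ array. Cst3 passed 2-fold with median scaling, and Ctsh passed it on the CD4+ side with normexp at 2.08-fold. Ctsc, the protease that activates granzymes, was 1.24-fold higher on the CD8+ array.

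Granule membrane and matrix genes stayed within 2-fold in 9 of 9 measured genes, with a median of -0.27. Cd63, a tetraspanin of granule membranes, was 1.46-fold higher on the CD4+ array, the proteoglycan gene Sdc4 1.44-fold and Igf2r, the mannose 6-phosphate receptor, 1.34-fold. Chst11, a chondroitin sulfotransferase, was 1.73-fold higher on the CD8+ array by its brightest probe, but 4.74-fold by a dimmer one and at least 1.83-fold by the dimmest. Xylt1 had no named probe. Among other serpin genes, 4 of 6 were measured and none passed 2-fold, with a median of 0.10. Serpinb6b, next to Serpinb9 on chromosome 13, was 1.85-fold higher on the CD8+ array (past 2-fold with median scaling). Serpinb1a and Serpinb6a differed by 0.16 and 0.04, and Serpinb2 was at least 1.24-fold higher on the CD4+ array. Serpinb9b was not well above background and Serpina3g had no named probe.

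**Figure D4:**
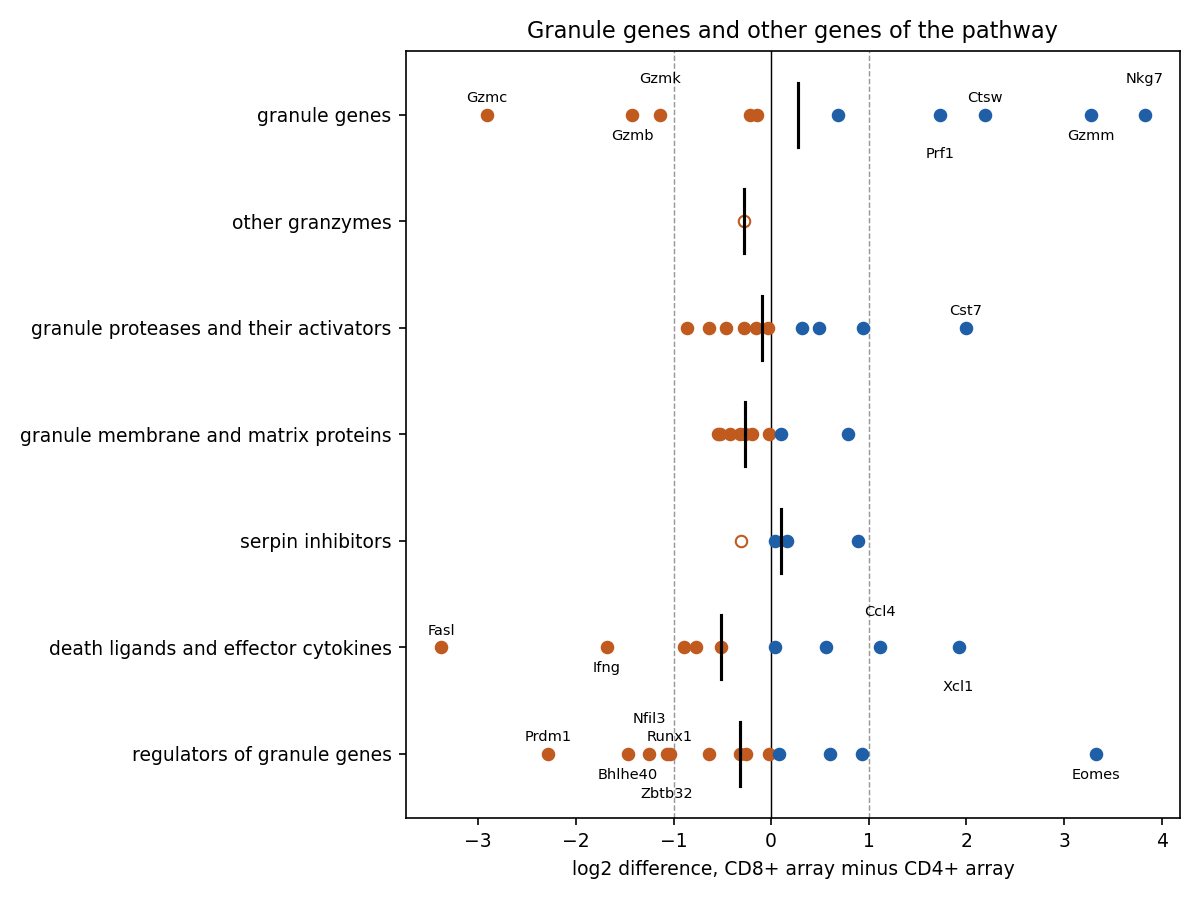
Log2 difference (CD8+ array minus CD4+ array) of the granule genes and of 6 lists of related genes; each point is a gene above background on at least 1 array, blue where higher on the CD8+ array and orange where higher on the CD4+ array, open circles are lower bounds, black bars are medians and dashed lines mark 2-fold. Granule genes spread from -2.91 to 3.83, while granule proteases and membrane genes lie mostly within 2-fold.

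The killing pathways outside the granule and the cytokines of effector cells were also split. Of 9 genes, 2 were at least 2-fold higher on the CD8+ array and 2 on the CD4+ array, against 2.24% and 4.66% of all genes. The median was -0.51. Fasl, the ligand that kills through the Fas receptor, was 10.4-fold higher on the CD4+ array (7.25-fold by its dimmer probe and 6.47-fold with normexp), and Ifng, interferon gamma, 3.21-fold. The chemokine genes Xcl1 and Ccl4 were 3.79-fold and 2.17-fold higher on the CD8+ array, and Ccl4 was 1.96-fold with normexp.

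Of 14 regulators of granule genes, 13 were measured, with a median of -0.32. On the CD8+ array 1 was at least 2-fold higher, against 2.24% of all genes, and on the CD4+ array 5, against 4.66%. Eomes, a T-box factor that drives perforin and granzyme genes, read 113 with CD4+ and 999.7 with CD8+ RNA, 10.03-fold higher (6.46-fold with normexp). Tbx21, the related factor T-bet, was 1.52-fold higher on the CD8+ array, and Runx3, a factor of the CD8 lineage, 1.90-fold (1.42-fold with its dimmer probe). On the CD4+ side stood Prdm1 (Blimp-1) at 4.87-fold, Bhlhe40 at 2.77-fold, Nfil3 at 2.37-fold, Zbtb32 at 2.09-fold and Runx1 at 2.05-fold. The second probes of Nfil3 and Runx1 differed by -0.23 and 0.007. With normexp, 2 of these 5 passed 2-fold, Prdm1 at 2.75-fold and Nfil3 at 2.27-fold. With median scaling 3 passed on the CD4+ side and 2 on the CD8+ side, where Runx3 was added. Bach2 had no named probe.

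Cells other than CD4 and CD8 T cells also use granule genes, so their markers are given beside the members. NK cells carry perforin, Nkg7 and most granzymes, and 8 of 12 NK markers were well above background on at least 1 array. Klrb1c (NK1.1) was 5.07-fold (3.14-fold with normexp) and the NK receptor gene Ncr1 4.40-fold (1.62-fold with normexp) higher on the CD4+ array. The adaptor gene Tyrobp was 2.25-fold and Fcer1g 1.36-fold higher there. Eomes, which the regulators also hold, and Gata2 (at least 2.16-fold) were higher on the CD8+ array. Gata2, which the mast cell list also holds, read 23.7 there and did not pass background on the CD4+ array. Its second probe passed in neither sample. The summed scaled signal of the list was 26.8 with CD4+ and 15.6 with CD8+ RNA, and the median difference was -0.003. Tyrobp alone made up 20.0 and 8.88 of these sums, and without it they were 6.77 and 6.69. All such sums, here and below, add probes whose values are not comparable, including those of markers not well above background. A sum is therefore led by its brightest probes and serves only to set the 2 arrays side by side. Klre1, Klri2, Klra4 and Itga2 were not well above background. Klrk1 (NKG2D) and Klra8 (Ly49H) differed by 0.54 and 0.44, so that 4 of the 8 measured markers were higher on either side. The part of NK cells in these differences was not tested.

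Mast cells store serine proteases and serglycin. Of 10 mast cell and basophil markers, 7 passed background in at least 1 sample, of which 3 were at least 2-fold higher on the CD4+ array (Mcpt4, Cma1 and Cpa3, the last at least 2.82-fold) and Gata2 on the other. With normexp none of these 4 passed 2-fold. Without normexp, 4.66% of all genes passed 2-fold on the CD4+ side and 2.24% on the CD8+ side. The summed scaled signal was 0.873 with CD4+ and 0.561 with CD8+ RNA, the median difference was -0.52, and Mcpt8 and Ms4a2 were not well above background. Of 10 neutrophil and monocyte markers, 8 were measured, with Lyz2, lysozyme, 4.49-fold and Itgam 3.11-fold higher on the CD4+ array, none 2-fold higher with CD8+ RNA and a median of -0.15. Itgam was 1.49-fold with normexp. The 2 markers with a higher CD8+ value were S100a9 and Csf1r, with log2 differences of 0.27 and 0.05, while 6 ran the other way. Mpo was 1.25-fold higher on the CD4+ array and Elane was not well above background. The summed scaled signals of that list were 11.3 and 10.99. The part of these cells was not tested.

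Dendritic cell markers had a median of -1.15 over 6 measured genes of 8, with Cd209a 9.25-fold (2.55-fold with normexp), Siglech 6.28-fold (3.26-fold) and Itgax 2.48-fold higher on the CD4+ array. Xcr1, a chemokine receptor gene of one dendritic cell class, went the other way, 1.28-fold higher on the CD8+ array by its brightest probe and 8.18-fold by its dimmer one, and with the mean over probes it passed 2-fold there. The dendritic sums were 46.5 and 36.9, of which Bst2 made up 40.7 and 34.5, and without it they were 5.84 and 2.35. Plasma cell markers had a median of -0.73 over 5 genes, with Irf4 3.09-fold, Tnfrsf17 at least 3.83-fold and Xbp1 1.66-fold higher on the CD4+ array, and sums of 5.02 and 3.14. With normexp Irf4 was 1.87-fold and Tnfrsf17 at least 1.48-fold higher. B cell markers were higher on the CD8+ array in 8 of 8 genes (7 with normexp) and none passed 2-fold, among them Cd79b at 1.79-fold and Blk at 1.74-fold, with sums of 19.3 and 29.8 (7.90 and 9.48 without Cd79b). Platelet markers had a median of 0.61 over 5 measured genes of 6, with Itga2b at least 2.32-fold (1.27-fold with normexp), Pf4 1.69-fold and Gp9 1.53-fold higher on the CD8+ array, sums of 0.563 and 0.867, and Gp5 not well above background. Of 7 gamma delta T cell markers 3 had a named probe, and Cd163l1, the only one measured in both samples, was 4.06-fold higher on the CD8+ array. Il23r passed background only in the CD4+ sample and had no bound above 1-fold, Sox13 passed in neither (the median of the 3 with no filter was 0.19), and the list summed to 0.649 and 2.50. The 8 general T cell genes had a median of 0.08, with sums of 454 and 438, and Cd28 was the only one past 2-fold, 2.09-fold higher on the CD4+ array (1.06 on the log2 scale, 0.92 with median scaling). The part of these cells in the granule gene differences was not tested.

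**Figure D5:**
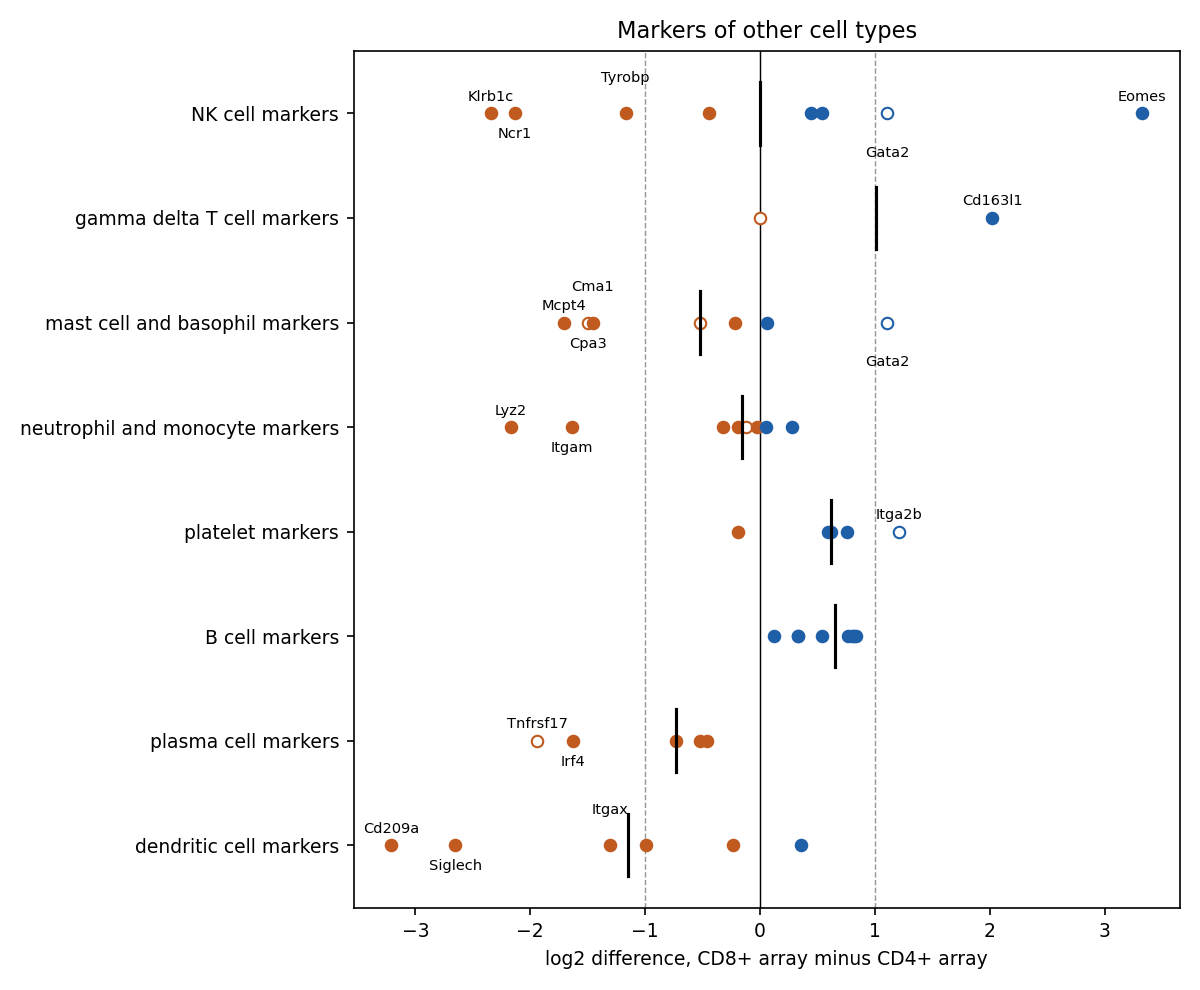
Log2 difference (CD8+ array minus CD4+ array) of marker genes of 8 other cell types; each point is a gene above background on at least 1 array, blue where higher on the CD8+ array and orange where higher on the CD4+ array, open circles are lower bounds, black bars are medians and dashed lines mark 2-fold. NK markers lie on both sides, dendritic cell markers have a median of -1.15 and B cell markers all lie between 0 and 2-fold on the CD8+ side.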

How the data were processed

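Expression was measured on 1 Agilent one-colour array per cell type. The deposited scanner files hold linear intensities that Feature Extraction 10.1.1.1 made, per the file headers; the submitters' processing notes name version 9.1 of Agilent Feature Extraction. Its processed intensity is background-subtracted and not scaled between arrays. The authors' series value table equals the median pixel intensity at 45018 of 45018 spots of each array (exact equality), so it is linear and not background-subtracted, with medians of 80 and 73. The deposited files also give each spot's error, its local background intensity and flags of 0 or 1, all of which were used.

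Of 43379 non-control spots, 63.1% of the CD4+ and 58.6% of the CD8+ spots were well above background. Outlier spots (99 and 92) were left out, saturated spots (212 on each array) kept, spots of a probe averaged on the log2 scale, and the 75th percentile subtracted. Probes were named by transcript accession in a RefSeq table of GRCm38.p6, used for names, gene order and promoters only: the file headers name another build, mm9, and no coordinates from it are printed; 60.3% of 41170 probes matched 1 symbol. A gene took its brightest probe, preferring probes above background on both arrays. For the 1105 genes above background on 1 array, the dim side was set to the higher of its own level and the lowest level of a probe above background there, and the fold is written "at least"; on linear and log2 scale alike.

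All members are described, with the largest differences of each list (4 per pathway list, 3 per marker list) and undetected defining markers. Other named genes were chosen after their values were seen. One B cell marker that this rule names is not reported here. Alternatives were normexp (offset 50, run on the median signal and median background), quantile and loess normalization, other scalings, other probe rules, the series values, no filter on dim probes and a 4-fold threshold. The members and lists were chosen with earlier results of these data known. There were 16 lists besides the members. No p-value is given, since with a single array per group the spread between mice cannot be estimated. Scripts were tested on simulated data. Tools were R 4.3.3 with limma 3.58.1, and Python 3.11.15 with pandas 2.3.3 and numpy 2.4.6.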

Additional observations from a re-analysis of the deposited data

How the results depend on the processing

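Of 12 alternative settings, 11 give a difference for each granule gene, and in these the sign was kept in all of them for every granule gene except Srgn, which was 0.002 with median scaling. The 4 genes at least 2-fold higher on the CD8+ array stayed at 4 in each of these settings, and the 3 on the CD4+ array became 2 with normexp, the series values and median scaling, where Gzmk dropped out. Some of these settings left every member's value as it was. They were no filter on dim probes, brighter probes alone, saturated probes left out and outlier spots kept. No member was saturated, an outlier or removed by a filter, so these settings say nothing about their stability. Averaging over probes could change only Nkg7 and Serpinb9, the members with 2 probes. With a 4-fold threshold, 3 granule genes (4 probes) passed on the CD8+ side, where Prf1 dropped out, and 1 gene (1 probe) on the CD4+ side, and 63 and 144 genes of the whole array passed on the CD8+ and CD4+ sides, against 292 and 609 at 2-fold. Normexp gave 124 and 238 genes, the series values 148 and 294, and no filter on dim probes 616 and 1277. Median scaling shifted all genes by 0.14 at the median, and moved the share of 2-fold genes that were higher on the CD8+ array from 32.4% to 44.9%. Under normexp the differences were -1.04 for Gzmb, -1.20 for Gzmc, -0.81 for Gzmk, 2.61 for Gzmm and 1.95 for Ctsw. Adding its offset of 50 to every spot shrinks the differences of dim spots by construction. How much of each change came from the offset was not tested. No paired analysis was possible because each group holds 1 array. Of the granule genes' spots, that of Gzmc on the CD8+ array was dimmest, at 61 over a background of 51.5.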

Other observations

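The nearest 2 protein-coding genes on either side of each member were looked up after the members' values had been seen. Of 32 such neighbours that are no members, 21 were well above background on at least 1 array, 3 of them at least 2-fold higher on the CD8+ array and 1 on the CD4+ array, against 2.24% and 4.66% of all genes. All 3 stand directly beside a member that was itself higher on the CD8+ array. Cldnd2, beside Nkg7, read 50.4 with CD4+ and 165 with CD8+ RNA and was 3.69-fold higher there (2.24-fold with normexp). Efemp2, a gene of elastic fibre assembly beside Ctsw, read 157 and 403 and was 2.90-fold higher (2.27-fold with normexp). Pald1, beside Prf1, read 51.2 and 116 and was 2.56-fold higher, or 1.67-fold with normexp. On the other side of Prf1 and Ctsw, the direct neighbours Adamts14 and Fibp differed by -0.32 and 0.005. Whether neighbours move with a member was not tested. The neighbour on the CD4+ side was Esm1, beside Gzmk, at 2.04-fold, which was 1.65-fold with normexp. The neighbours of Gzmm, Tpgs1, Cdc34, Bsg and Hcn2, differed by 0.27, 0.32, 0.38 and 0.007, and those of Srgn lay within 2-fold as well.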
